A study of Mus musculus with 8 samples.

Results

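The heat shock proteins and chaperonins are the proteins that fold newly made chains and refold damaged ones. Members were taken by symbol: every gene whose name begins with Hsp, the DNAJA, DNAJB and DNAJC co-chaperones, the subunits of the cytosolic chaperonin TRiC (Cct2 to Cct8 and Tcp1), the transcription factor gene Hsf1 and the co-chaperone gene Bag3. Of 22609 gene rows, 87 matched, and the 65 with at least 10 reads in 4 or more of the 8 libraries were kept. All 65 were tested in the fit over all genes.

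Cytosolic HSP70 and HSP90 proteins bind exposed hydrophobic stretches of client proteins in cycles of ATP hydrolysis, and DNAJ proteins hand clients to HSP70 and trigger that hydrolysis. When unfolded protein accumulates, HSF1 forms trimers, binds heat shock elements in promoters and raises a small set of inducible genes, of which Hspa1a and Hspa1b are the classical examples. The endoplasmic reticulum (ER) has its own stress response and its own chaperones, and TRiC folds actin and tubulin in unstressed cells. In sorted cells the inducible genes are also known to react to handling, such as warm tissue digestion.

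The libraries were made from intrahepatic effector CD8 T cells of 6-week-old male mice (strain C57BL/6J). All mice were given an αCD137 antibody, which binds a costimulatory receptor on T cells, on days 0, 3 and 6, and the organ was collected on day 8. The gate took live cells positive for CD45, TCRβ, CD8α and KLRG1 and negative for MHCII, NK1.1, CD4 and CD127. Surface CD11c then divided them into 4 CD11c+ and 4 CD11c- libraries. Neither subset has untreated cells beside it here, so the antibody and the sort are shared by both groups. Libraries are numbered 1 to 4 in each subset. What a number marks is not stated in the labels, nor whether each library is a different mouse, and p-values therefore cover only sample-to-sample spread, part of which may be technical.

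Total reads in genes ranged from 5090345 to 6430608 in CD11c+ libraries and from 5288939 to 7093163 in CD11c- libraries. Genes with at least 1 read ranged from 10482 to 12581 in CD11c+ libraries and from 10783 to 12322 in CD11c- libraries, and the lowest value of each subset was in its replicate 1. The summed level of Cd3d, Cd3e, Cd8a and Cd8b1, which define CD8 T cells, was 4327 to 5219 CPM (read counts scaled to library size) in CD11c+ libraries and 4387 to 4876 CPM in CD11c- libraries. Summed hepatocyte markers were at 0.196 to 25.9 CPM in CD11c+ libraries and at 1.86 to 38.2 CPM in CD11c- libraries. Dendritic cells also carry CD11c, and their 7 markers, 2 of which stayed under 1 CPM, summed to 4.37 to 13.5 CPM in CD11c+ libraries and 0 to 4.40 CPM in CD11c- libraries. Markers of natural killer cells and ILC1 summed to 11.5 to 80.4 CPM in CD11c+ libraries and 6.31 to 37.2 CPM in CD11c- libraries. Most of that sum came from Tyrobp and Fcer1g, at 55.2 and 22.6 CPM in CD11c+ replicate 3, the top library. Ncr1 and Klrb1c had 1.78 and 0.713 CPM there, and Klrb1c was highest in CD11c+ replicate 1, at 8.99 CPM. Macrophage markers summed to 4.37 to 32.4 CPM in CD11c+ libraries and 3.50 to 22.2 CPM in CD11c- libraries. Those of B cells summed to 9.58 to 13.6 CPM in CD11c+ libraries and 6.58 to 14.8 CPM in CD11c- libraries. The part of these cells in the chaperone levels was not tested. Over all genes, edgeR's quasi-likelihood test with Benjamini-Hochberg adjustment called 5 of 10073 between the subsets at an adjusted p under 0.05 (0.0496%).

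Chaperone promoters are shown as examples of the promoter elements counted below, and levels were not compared with these elements. Sequences are RefSeq's (GRCm38.p6), 5′ to 3′ on the gene's own strand and ending just before the annotated start, and capitals mark a motif match. Hspa1a lies at chr17:34972157-34972406 on the minus strand, with a match to the heat shock element of 2 blocks (GAANNTTC or TTCNNGAA). For Hspe1, the region between its start and an opposite start of Hspd1 is shown, chr1:55087933-55088147 on the plus strand. Its capitals hold 2 overlapping matches to the element of 3 blocks (GAANNTTCNNGAA or TTCNNGAANNTTC), each of which also holds matches to the element of 2 blocks. Another annotated start of Hspd1 has a window without either heat shock element. Hspa5 lies at chr2:34771840-34772089 on the plus strand, with a match to the ER stress element (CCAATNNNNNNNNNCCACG).
Hspa1a: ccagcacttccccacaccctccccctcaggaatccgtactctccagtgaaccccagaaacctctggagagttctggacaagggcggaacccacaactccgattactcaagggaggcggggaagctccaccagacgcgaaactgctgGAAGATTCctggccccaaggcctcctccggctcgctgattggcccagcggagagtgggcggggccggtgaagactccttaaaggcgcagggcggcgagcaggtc
Hspe1: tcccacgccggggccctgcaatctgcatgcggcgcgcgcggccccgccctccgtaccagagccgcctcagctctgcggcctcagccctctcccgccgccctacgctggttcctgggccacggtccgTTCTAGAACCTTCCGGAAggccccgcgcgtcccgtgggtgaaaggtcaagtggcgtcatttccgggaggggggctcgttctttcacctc
Hspa5: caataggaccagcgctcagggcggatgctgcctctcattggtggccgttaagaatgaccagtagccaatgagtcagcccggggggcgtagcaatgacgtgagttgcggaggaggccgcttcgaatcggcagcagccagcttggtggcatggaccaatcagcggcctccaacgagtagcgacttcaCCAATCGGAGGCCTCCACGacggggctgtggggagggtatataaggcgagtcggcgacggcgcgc

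Windows of 300 bases around the start, 250 before and 50 after, were at hand for 52 of the 65 genes and were searched on both strands. The heat shock element of 3 blocks was found in 4 of the 52 (7.69%), in Dnajb6, Hspd1, Hspe1 and Hsph1, against 0.662% of 27025 genes. Hspd1 and Hspe1 hold the same site, read on opposite strands, so these counts are of genes and not of separate sites. The shorter element of 2 blocks was found in 16 of the 52 (30.8%), against 17% of all genes. It was also found in 8 of 9 classical HSF1 targets with a window, but these 9 include Hspb1, which was not kept. The targets Hspa8, Hsp90aa1 and Hsp90ab1 had no window and were not searched. Hspa1a and Hspa1b windows were identical at 296 of 300 positions and held the shorter element without the longer. The ER stress element was found in Dnajc3, Hsp90b1 and Hspa5, 3 of 52 (5.77%), against 0.137% of all genes. These are matches of letters only, and no binding was measured.

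Between CD11c+ and CD11c- cells, none of the 65 genes passed the test over all genes in edgeR, and adjusted p-values ran from 0.945 to 0.999. Limma voom with quality weights also called 0 of 65 members. DESeq2 called 0 of the 47 members to which it gave an adjusted p, and gave none to 18, Hspbap1 among them. In edgeR 1 member (1.54%) had an unadjusted p under 0.05, Dnajc9, against 4.7% of all tested genes. The 4 CD11c+ libraries did not overlap the 4 CD11c- libraries in 2 members (3.08%), Dnajc9 and Hspbap1, against 3.44% of all tested genes. Both shares lie near or under those of all genes. The log2 fold change was above 0 in 42 members (64.6%) and below 0 in 23, against 51.7% above 0 among all tested genes. Its median was 0.098 over members and 0.011 over all tested genes. In these bulk samples, fewer cells of a type and less RNA per cell cannot be told apart.

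The precision differed with read depth. The 28 members with a mean of at least 100 CPM had log2 fold changes from -0.28 to 0.23 with a median standard error (SE) of 0.14. The 37 members below that level had a median SE of 0.37. Of all 65 members, 58 had a log2 fold change within 0.5 of 0. In the simulations behind the test, 8.46% of genes changed 1.5-fold and 39.8% of those changed 2-fold were called with 4 libraries a subset. Over all genes, changes of that size could thus mostly not be detected. The changed genes were drawn from all 10073 tested genes, of which 2233 had a mean of at least 100 CPM. The share called among genes of that level alone was not computed.

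**Figure D1:**
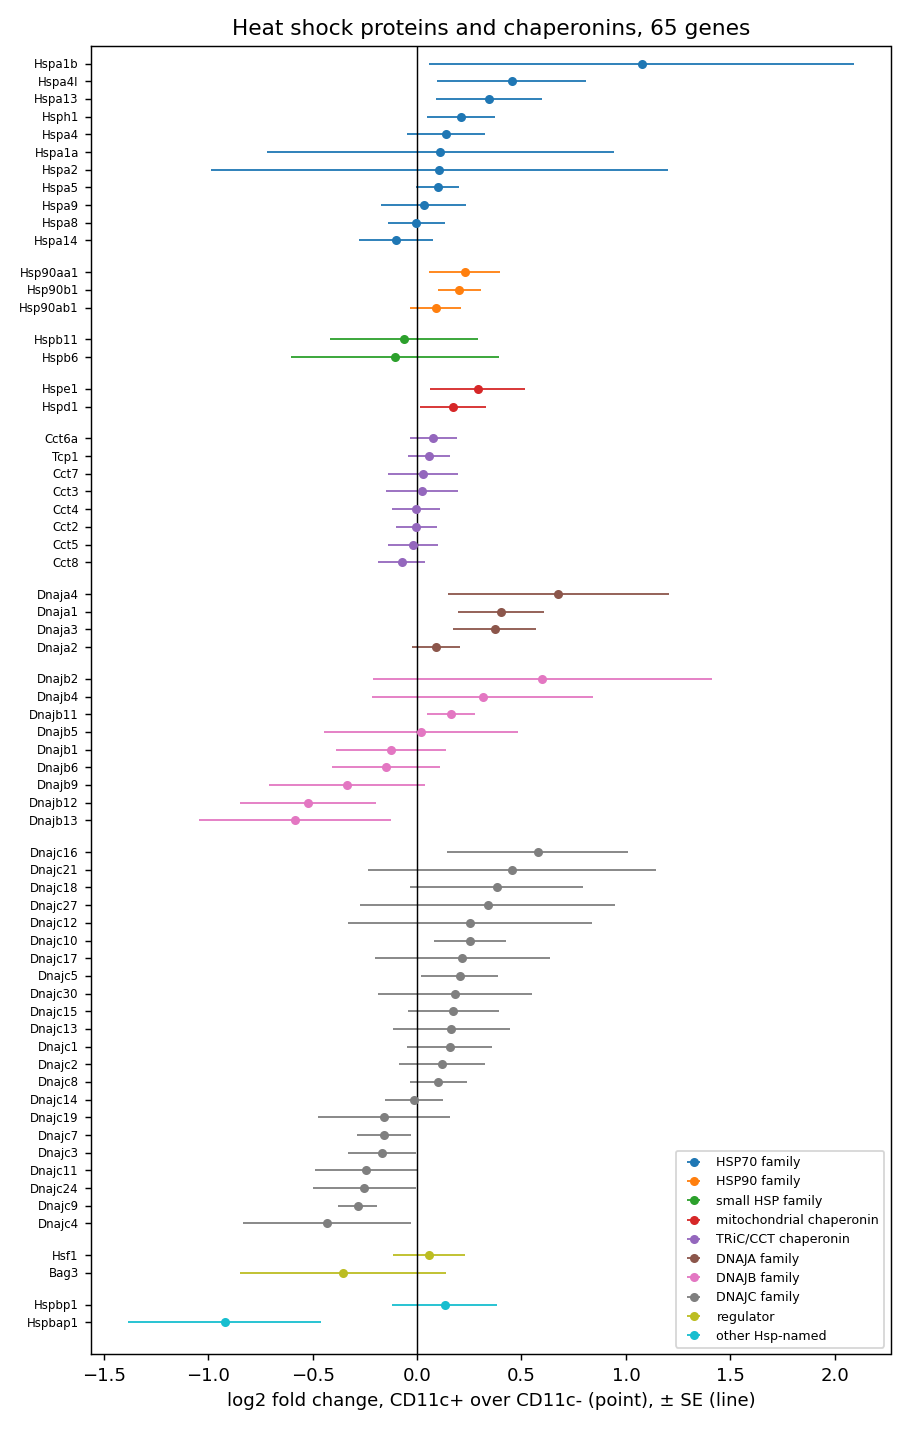
Log2 fold change (CD11c+ over CD11c-, horizontal axis) of the 65 kept genes, grouped by family; points are edgeR estimates and lines ± SE over 4 CD11c+ and 4 CD11c- libraries. Most points lie within 0.5 of 0, and the wide lines belong to genes of low counts such as Hspa1b, Hspa2 and Hspa1a.

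Among the HSP70 proteins, 11 of 14 matched genes were kept, 9 with a log2 fold change above 0 and 2 below. Hspa8, the constitutive cytosolic HSP70, had 261, 358, 360 and 369 CPM in CD11c+ replicates 1 to 4, against 281, 335, 366 and 371 CPM in CD11c- replicates 1 to 4. The subsets overlapped throughout, with a log2 fold change of 0.00 (SE 0.14) and an adjusted p of 0.999 in edgeR, and replicate 1 was the lowest of either subset. Hspa5, the ER HSP70 also called BiP, had 849, 906, 872 and 1017 CPM in CD11c+ libraries and 767, 912, 774 and 950 CPM in CD11c- libraries. Its log2 fold change was 0.10 (SE 0.10), with an adjusted p of 0.991. Hsph1, the HSP110 that resets HSP70 by nucleotide exchange, averaged 349 ± 41.2 CPM in CD11c+ cells and 302 ± 70.0 CPM in CD11c- cells (SD, n = 4 each), a difference within the spread.

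Hspa1a, the main heat-inducible HSP70, varied more between libraries of a subset than between subsets. It had 2.54, 49.9, 15.9 and 9.82 CPM in CD11c+ replicates 1 to 4, from 13, 286, 89 and 63 reads. In CD11c- replicates 1 to 4 it had 2.60, 47.1, 12.4 and 9.87 CPM, from 14, 336, 66 and 56 reads. Replicate 2 was the highest and replicate 1 the lowest of either subset, 19.6-fold apart in CD11c+ cells and 18.1-fold apart in CD11c- cells. Against that spread the log2 fold change between the subsets was 0.11 with an SE of 0.83, and leaving out a library moved it between -0.95 (without CD11c+ replicate 2) and 1.23 (without CD11c- replicate 2).

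Its near-copy Hspa1b had 0.587, 5.24, 3.21 and 0.468 CPM in CD11c+ libraries, against 0.557, 1.82, 1.88 and 0.176 CPM in CD11c- libraries. Hspa1b entered the set just inside the read filter, with 81 reads in all and at least 10 in 4 libraries. Its log2 fold change of 1.08 had an SE of 1.02, and was 0.33 without CD11c+ replicate 2 and 0.72 without CD11c- replicate 4. Of its 50-base windows, 62.3% also occur in Hspa1a transcripts, and reads that fit several places were not assigned, so neither gene's absolute level is certain. Hspa2, an HSP70 best known from testis and described after its values were seen, had no read in either replicate 1, which allows up to 0.586 CPM in CD11c+ replicate 1 and 0.556 CPM in CD11c- replicate 1 for counting error alone. In replicates 2 to 4 it had 12.6, 10.2 and 7.01 CPM in CD11c+ cells and 9.52, 10.2 and 7.93 CPM in CD11c- cells.

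**Figure D2:**
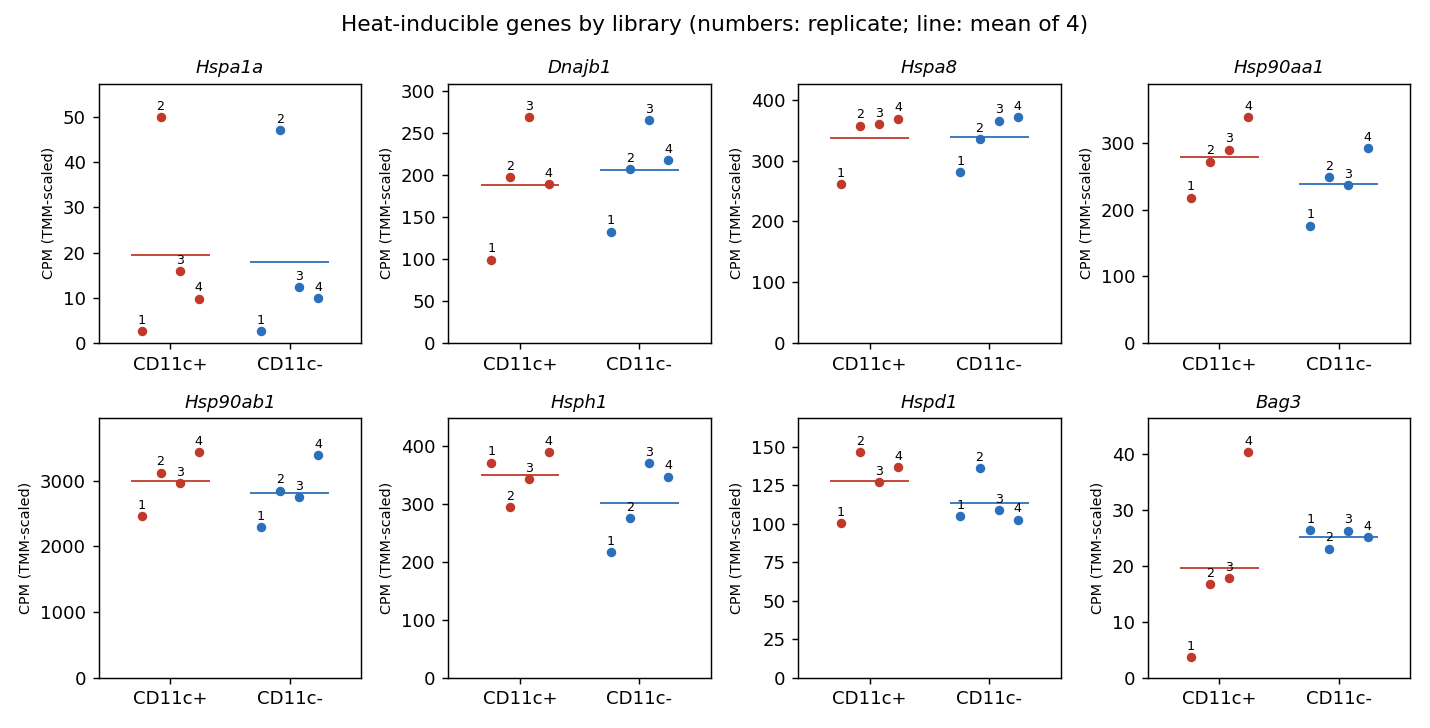
Level of 8 genes of the HSF1 target list in each library (vertical axis, TMM-scaled CPM from 0). Hspa8 and Hsp90ab1 among them are constitutive, although the title calls all 8 heat-inducible. Points are libraries, digits the replicate number and lines the mean of 4, with CD11c+ left of CD11c- in each panel. Hspa1a is highest in replicate 2 of both subsets, at 49.9 CPM in CD11c+ and 47.1 CPM in CD11c- cells, while the subset means lie close together.

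The HSP90 genes carried much of the chaperone signal. Hsp90ab1, the constitutive cytosolic HSP90, took 21.3% of all reads of the kept genes, and had 2459, 3121, 2964 and 3431 CPM in CD11c+ libraries, against 2288, 2846, 2743 and 3382 CPM in CD11c- libraries. Hsp90aa1, its inducible partner, had 218, 272, 290 and 338 CPM in CD11c+ libraries and 176, 249, 237 and 293 CPM in CD11c- libraries. The subsets overlapped in both genes, with log2 fold changes of 0.09 (SE 0.12) for Hsp90ab1 and 0.23 (SE 0.17) for Hsp90aa1. Number by number, both were higher in CD11c+ cells in 4 of 4, as was Dnaja1, while Dnajc9 was lower in 4 of 4. The share over all tested genes was not computed, and the labels do not say that numbers pair libraries. With the number as a block in edgeR, neither HSP90 gene passed (adjusted p 0.851 for Hsp90ab1 and 0.805 for Hsp90aa1). Hsp90b1, the ER HSP90 called GRP94, which folds Toll-like receptors and integrins, averaged 984 ± 46.0 CPM in CD11c+ cells and 856 ± 109 CPM in CD11c- cells (SD, n = 4 each). Its log2 fold change of 0.20 (SE 0.10) had an adjusted p of 0.991 in edgeR.

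In CPM per kilobase of transcript, averaged over the 8 libraries, Hsp90ab1 stood at 1152 and Hsp90aa1 at 79.0, a ratio of 14.6. Of Hsp90aa1's 50-base windows, 58.5% also occur in transcripts of other genes, mostly of Gm12346, a transcribed processed pseudogene, and per kilobase of unshared windows the ratio was 6.37. Hspa8 shared the largest part among the 64 genes with a matched transcript, 74.8%, and stood at 141 CPM per kilobase, or 572 per kilobase of unshared windows. Shared windows exceeded 40% in 8 of the 64 genes and were at 0 in 31, so levels of Hspa8, Hsp90aa1, Hspd1, Hspe1, Hspa1a, Hspa1b, Dnaja4 and Dnajb6 are uncertain.

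**Figure D3:**
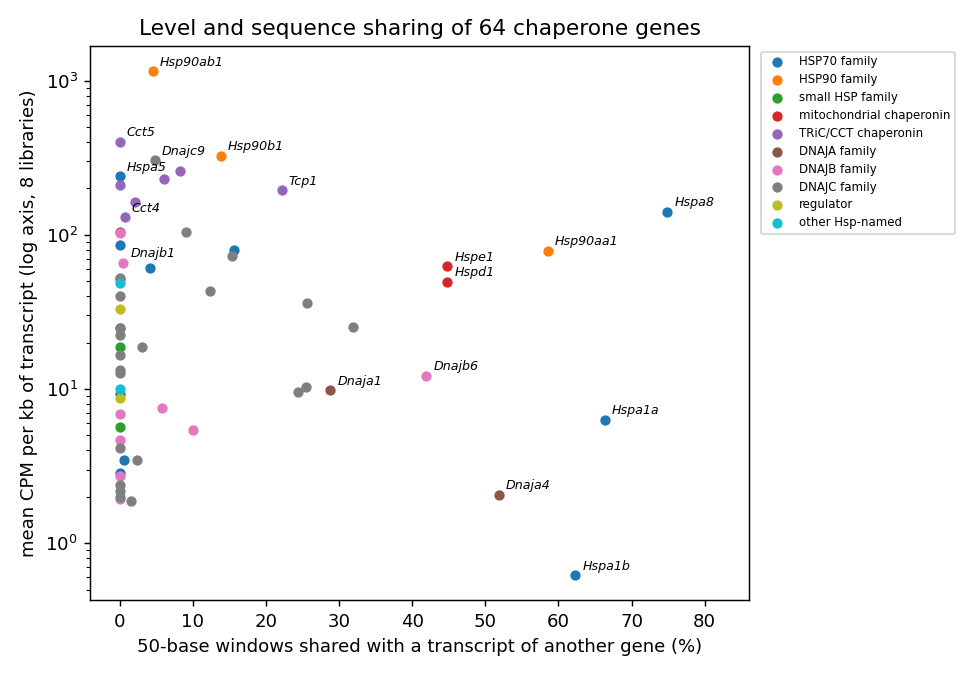
Mean level of 64 kept genes over 8 libraries (vertical log axis, CPM per kilobase of transcript) against the share of their 50-base windows that also occur in a transcript of another gene (horizontal axis, %); each point is a gene, coloured by family. Hsp90ab1 lies highest at 1152, and Hspa8, Hspa1a, Hspa1b and Hsp90aa1 lie farthest right.

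TRiC subunits, which assemble into a double ring, differed little between the subsets. All 8 kept TRiC subunits had log2 fold changes between -0.07 (Cct8) and 0.08 (Cct6a), 4 above 0 and 4 below, and their summed level was 3873 ± 399 CPM in CD11c+ cells and 3855 ± 402 CPM in CD11c- cells (SD, n = 4 each). Cct7 had 496, 721, 604 and 749 CPM in CD11c+ libraries, against 459, 721, 571 and 769 CPM in CD11c- libraries. The 2 subsets thus overlapped fully, with replicate 1 lowest and replicate 4 highest in each. Per kilobase of transcript the 7 subunits with a matched length lay between 130 (Cct4) and 403 (Cct5) CPM, within 3.09-fold of each other. Cct6b, the testis form of the zeta subunit, had 14 reads and Cct8l1 none.

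Of the mitochondrial chaperonin pair, Hspd1 (HSP60) had 100, 146, 127 and 137 CPM in CD11c+ libraries and 105, 136, 109 and 103 CPM in CD11c- libraries. Its lid Hspe1 (HSP10) had 42.2, 44.3, 63.8 and 62.2 CPM in CD11c+ libraries and 32.1, 42.0, 46.1 and 53.6 CPM in CD11c- libraries. These genes share the promoter region printed above, though Hspd1 has another annotated start. Their log2 fold changes of 0.17 (SE 0.16) and 0.29 (SE 0.23) did not pass the test, and the order of the libraries differed between them.

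All 4 DNAJA genes had a log2 fold change above 0, from 0.09 (Dnaja2, which lay just below 0 without CD11c- replicate 1) to 0.68 (Dnaja4), and none passed the test. Dnaja1, the main cytosolic partner of HSP70, had 71.4, 61.5, 65.2 and 53.2 CPM in CD11c+ libraries, against 47.2, 43.3, 63.0 and 36.8 CPM in CD11c- libraries. Only CD11c- replicate 3 lay within the range of CD11c+ libraries, and the log2 fold change was 0.40 (SE 0.21) with an adjusted p of 0.991 in edgeR. Dnaja3, the mitochondrial DNAJ also called Tid1, averaged 74.0 ± 19.4 CPM in CD11c+ cells and 57.2 ± 1.82 CPM in CD11c- cells (SD, n = 4 each). Its highest value, 100.2 CPM, was in CD11c+ replicate 2 and its lowest, 53.6 CPM, in CD11c+ replicate 3, and its log2 fold change of 0.37 (SE 0.20) was 0.18 without CD11c+ replicate 2. The mean log2(CPM + 1) of the 4 genes was 5.75 to 6.08 in CD11c+ libraries and 5.28 to 5.64 in CD11c- libraries, with no overlap, while their summed CPM overlapped. No test was run on this mean, since the members were not chosen independently of these data.

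The DNAJB genes went either way, with 4 of 9 kept genes above 0. Dnajb1, the HSP40 induced along with HSP70, had 99.3, 198, 269 and 189 CPM in CD11c+ libraries, against 133, 208, 265 and 218 CPM in CD11c- libraries. Its lowest level was in replicate 1 and its highest in replicate 3 of each subset, with a log2 fold change of -0.13 (SE 0.27). Dnajb11, an ER partner of BiP, averaged 274 ± 27.7 CPM in CD11c+ cells and 245 ± 14.6 CPM in CD11c- cells (SD, n = 4 each). Dnajb12, an ER membrane protein, and Dnajb13, known from sperm flagella and cilia, were lower in CD11c+ cells on average, by log2 fold changes of -0.52 (SE 0.33) and -0.58 (SE 0.46), and neither passed the test. Without CD11c+ replicate 1 Dnajb13 stood at -0.27, and Dnajb12 at -0.30 without CD11c- replicate 1 and at -0.79 without CD11c+ replicate 4.

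Among 22 kept DNAJC genes, 14 lay above 0 and 8 below. Dnajc9, a co-chaperone of histones H3 and H4, had 476, 436, 458 and 427 CPM in CD11c+ libraries, against 506, 588, 554 and 539 CPM in CD11c- libraries. Every CD11c+ library lay below every CD11c- library. The log2 fold change was -0.28 (SE 0.09), with an unadjusted p of 0.0106 and an adjusted p of 0.945 in edgeR's test over all genes, so the difference did not pass. Dnajc15, a mitochondrial inner membrane protein known to restrain respiration in CD8 T cells, had 373, 222, 437 and 346 CPM in CD11c+ libraries and 390, 196, 309 and 326 CPM in CD11c- libraries, lowest in replicate 2 of each. The ER proteins Dnajc3 and Dnajc10 had log2 fold changes of -0.17 (SE 0.16) and 0.25 (SE 0.17). Dnajc25, with 86 reads and at least 10 in 3 libraries, lay just outside the filter.

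Small heat shock proteins had few reads. Of 8 matched genes 2 were kept, Hspb6 at 7.47 ± 0.855 CPM in CD11c+ cells and 8.04 ± 3.87 CPM in CD11c- cells, and Hspb11 at 11.2 ± 2.86 CPM in CD11c+ cells and 11.7 ± 1.07 CPM in CD11c- cells (SD, n = 4 each). Hspb11 is, despite its name, a protein of intraflagellar transport. Hspb1, the heat-inducible HSP27 of many other tissues, had 5 reads over the 8 libraries, and Hspb2, Hspb3 and Hspb7 had none.

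Hsf1 itself had 55.1, 73.0, 68.8 and 82.5 CPM in CD11c+ libraries, against 72.8, 62.5, 69.8 and 63.6 CPM in CD11c- libraries, with a log2 fold change of 0.06 (SE 0.17). Bag3, an HSF1 target that links HSP70 to autophagy, had 3.71, 16.8, 17.8 and 40.4 CPM in CD11c+ libraries and 26.4, 23.1, 26.3 and 25.2 CPM in CD11c- libraries. The CD11c+ libraries lay on both sides of the narrow CD11c- range, and the log2 fold change of -0.36 (SE 0.49) was -0.014 without CD11c+ replicate 1 and -0.99 without CD11c+ replicate 4. Hspbap1, a protein that binds small heat shock proteins, had 10.8, 2.62, 19.8 and 13.7 CPM in CD11c+ libraries, all below the 24.1, 21.6, 20.1 and 23.1 CPM of CD11c- libraries. Its log2 fold change of -0.92 (SE 0.46) had an adjusted p of 0.991, and was -0.60 without CD11c+ replicate 2, its lowest library, and -0.38 without the 3 libraries of lowest gene detection. Hspbp1, a nucleotide exchange factor of HSP70, averaged 80.7 ± 17.4 CPM in CD11c+ cells and 73.7 ± 24.9 CPM in CD11c- cells (SD, n = 4 each).

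As a stress check, each library was given a score, the mean log2(CPM + 1) over the 65 genes. It was 5.87, 6.12, 6.01 and 6.10 in CD11c+ replicates 1 to 4 and 5.81, 6.11, 6.00 and 6.02 in CD11c- replicates 1 to 4. The means of 6.02 ± 0.111 in CD11c+ cells and 5.99 ± 0.126 in CD11c- cells (SD, n = 4 each) differed by 0.037, less than the pooled SD of 0.119. That SD includes the spread between numbers. Number by number, this score was higher in CD11c+ cells in 4 of 4, though the labels do not say that numbers pair libraries. Over the 11 kept classical HSF1 targets the score was 5.93, 6.83, 6.74 and 6.64 in CD11c+ libraries and 6.02, 6.66, 6.62 and 6.43 in CD11c- libraries. Replicate 1 was the lowest of either subset in both scores, and the subset means of 6.54 ± 0.411 in CD11c+ cells and 6.43 ± 0.294 in CD11c- cells (SD, n = 4 each) again differed by less than the spread. Without CD11c+ replicate 1 the difference in this score was 0.303, above the pooled SD of 0.236 of the 7 libraries left. Of the 11 targets 8 had a log2 fold change above 0 and 3 below, with a median of 0.17. Reads of the 65 genes made up 1.39% ± 0.108 of gene reads in CD11c+ cells and 1.33% ± 0.121 in CD11c- cells (SD, n = 4 each).

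**Figure D4:**
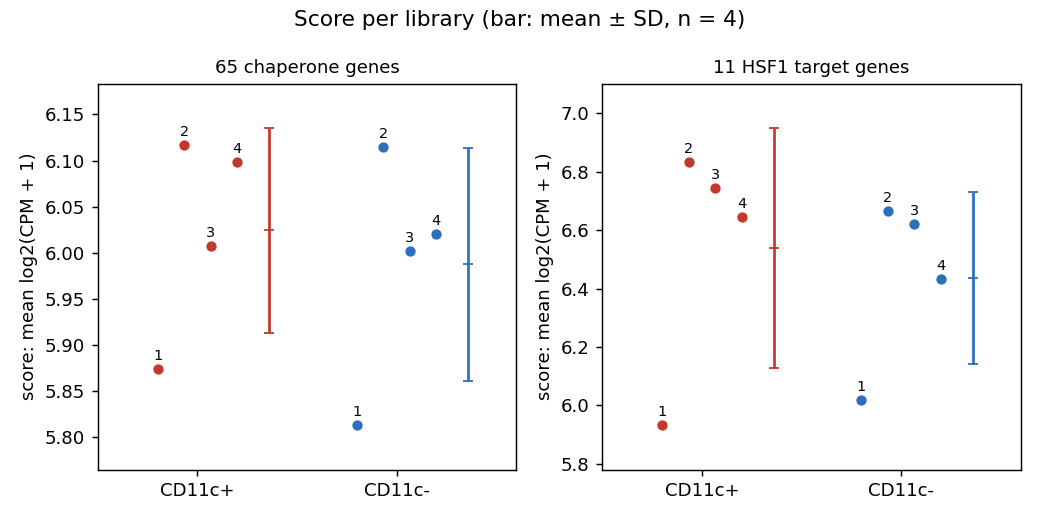
Score of each library (vertical axis, mean log2(CPM + 1), not starting at 0) over the 65 kept genes (left) and over the 11 HSF1 targets (right); points are libraries with their replicate number, bars mean ± SD of 4, CD11c+ left of CD11c-. Replicate 1 is lowest in each subset and panel, at 5.93 in CD11c+ and 6.02 in CD11c- cells for the HSF1 targets, and the subset bars overlap.

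Much of the spread in chaperone levels lay between replicate numbers, mostly in genes with many reads. No member passed the test of the numbers over all 8 libraries that is given below. The sum of squares of log2(CPM + 1) over the 8 libraries was split by number and by subset. Over all 65 members, a median of 58.6% of it lay between numbers, against 47.4% over all tested genes. In the 28 members with a mean of at least 100 CPM, a median of 78.9% of it lay between numbers and 8.31% between subsets, against 52.0% and 8.90% over the 2233 tested genes of that level. In Hspa1a 99.6% of it lay between numbers and in Hspa8 96.3%, so libraries of the same number were alike in these genes across the subsets. Other abundant members had far less of it there, with 3.88% in Dnajc9, 21.3% in Dnajc5 and 31.9% in Hsp90b1. The order of the 4 libraries was the same in both subsets in 9 of 65 members (13.8%), among them Hspa1a, Hsp90ab1, Cct7 and Hspa8, against 6.27% of all tested genes. Members were measured in the same libraries and are not independent of each other, so these shares describe the libraries. Numbers take 3 degrees of freedom and the subset 1, so the shares are to be read against those of all genes.

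A quasi-likelihood F test of the 3 number terms beside the subset, added after these values were seen, called 3 of 10073 genes (0.0298%) and none of the 65 members. Hspa1a came closest, with an adjusted p of 0.0696 in edgeR, followed by Hsp90ab1 and Dnajb1 at 0.132, Cct7 at 0.155 and Hspa2 at 0.182. At an unadjusted p under 0.05 stood 14 members (21.5%), against 8.47% of all tested genes. Without CD11c+ replicate 1 the test called 1 member, Hspa1a, and 53 of 10288 genes (0.515%). Without CD11c- replicate 1 it called 2 members, Dnajb1 and Hspa1a, and 96 of 10284 genes (0.933%). The calls thus grew over all genes and not among chaperones alone. In these fits replicate 1 is left with 1 library, which is assumed to vary like the other numbers. On simulated data 9.77% of the calls of this test were false, more than the threshold of 0.05 allows, and it recovered 51% of genes changed 4-fold. Those genes were changed in replicate 2 only, and other patterns were not simulated. The simulated noise was fitted without number terms, so it includes real spread between numbers, and the rates may differ for these data.

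**Figure D5:**
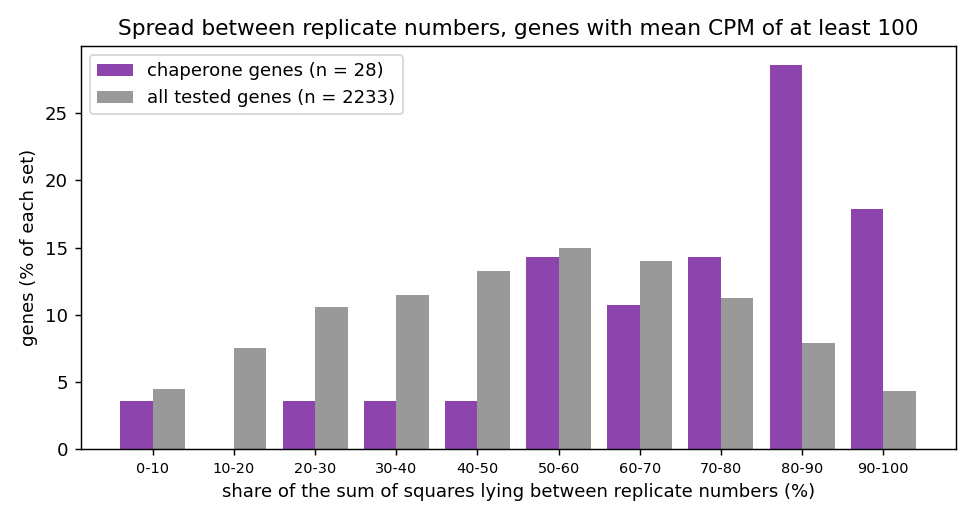
Share of the sum of squares of log2(CPM + 1) that lies between replicate numbers (horizontal axis, %, in bins of 10) for the 28 kept chaperone genes and for all 2233 tested genes with a mean of at least 100 CPM (vertical axis, % of each set). The chaperone genes shown have a median of 78.9% and all genes shown of 52.0%; with no limit on CPM the medians are 58.6% for the 65 members and 47.4% for all tested genes.

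Some other measures moved with the number as well, and their part in the chaperone levels was not tested. Immediate-early genes respond within minutes to stimulation or handling, and Fos, Jun and Dusp1, picked after their values were seen, were highest in replicate 2. Of the 20 genes of that list, 12 were highest in replicate 2 of CD11c+ cells but only 5 in replicate 2 of CD11c- cells. The share over all tested genes was not computed, so these counts do not show that the list as a whole moved with the number. Jund and Atf3 were lowest in replicate 2 of both subsets, and Egr1 was lowest in CD11c- replicate 2, at 44.4 CPM. Fos had 8.99, 70.2, 23.2 and 17.8 CPM in CD11c+ libraries and 32.1, 52.1, 20.3 and 12.0 CPM in CD11c- libraries. Jun had 23.9, 97.6, 34.7 and 20.1 CPM in CD11c+ libraries and 25.1, 57.4, 20.3 and 15.2 CPM in CD11c- libraries. Dusp1, which encodes a phosphatase of MAP kinases, stood at 167 CPM in CD11c+ replicate 2 and at 148 CPM in CD11c- replicate 2, above the other 6 libraries. These are the libraries in which Hspa1a was highest. Over the whole list of 20 such genes the summed level was 2492 to 3118 CPM in CD11c+ libraries and 2522 to 2891 CPM in CD11c- libraries, with the top value of each subset in replicate 2.

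Markers of other liver cells also differed by number. Summed neutrophil markers were 28.9, 2.27, 272.6 and 41.8 CPM in CD11c+ libraries and 27.5, 6.16, 105.5 and 53.7 CPM in CD11c- libraries, highest in replicate 3 and lowest in replicate 2 of each. Hepatocyte markers summed to 0.196, 17.1, 9.09 and 25.9 CPM in CD11c+ libraries and 1.86, 14.0, 8.28 and 38.2 CPM in CD11c- libraries. This sum was lowest in replicate 1 of each, where Hspa1a and Hspa2 were lowest too. It was highest in replicate 4 of each, while Hspa1a was highest in replicate 2. In CD11c- replicate 4, the top library, Trf and Fabp1 had 20.1 and 12.7 CPM and Alb 1.41 CPM. None of the 5 neutrophil and 8 hepatocyte markers in the files was at 0 in every library, and 1 of each list stayed under 1 CPM. Of the 5 red cell markers 4, the globin genes, were at 0 in every library, which leaves Alas2 alone for that cell type. Reads that fit several places were not assigned, so these zeros are not read as absence. Of the 5 endothelial markers 4 stayed under 1 CPM. The number of detected genes was 10482, 10892, 11533 and 12581 in CD11c+ libraries and 10783, 12322, 12120 and 12294 in CD11c- libraries, so replicate 1 was lowest in each.

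Lists of folding genes outside the set also held no gene past the adjusted threshold between CD11c+ and CD11c- cells in edgeR. In 25 tested co-chaperones such as Stip1 and Cdc37, 1 gene had an unadjusted p under 0.05, Ppid, a cyclophilin that binds HSP90, with a log2 fold change of 0.59 (SE 0.22), and the median was 0.04. None of 20 ER stress and folding genes did, with a median of 0.06, and among them Xbp1 stood at 0.16 (SE 0.16), Atf4 at 0.04 (SE 0.13) and Ddit3 at -0.23 (SE 0.29). Prefoldin and TRiC cofactor genes (9 tested) had a median of -0.02, mitochondrial chaperone and protease genes (10 tested) of -0.12 and targets of the oxidative stress factor NRF2 (7 tested) of 0.05, with 0 genes at an unadjusted p under 0.05 in each. Of 19 tested immediate-early genes 2 (10.5%) had one, against 4.7% of all tested genes, both lower in CD11c+ cells: Ier3 at a log2 fold change of -0.69 (SE 0.26) and Socs3, an inhibitor of cytokine signalling, at -0.57 (SE 0.20). The median over all tested genes was 0.011, and the smallest adjusted p in these lists was 0.990.

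The remaining matched genes were at or near 0. Of the 22 that were not kept, 10 had no read in any library and 12 had between 2 and 86 reads. They include the testis-expressed HSP70 gene Hspa1l with 7 reads, Hspa12b with 6 and Hspg2 with 2, which codes for the matrix protein perlecan and matches by its symbol alone. At this depth their levels could not be compared between the subsets.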

How the data were processed

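RNA-seq libraries of 4 CD11c+ and 4 CD11c- samples were analysed. Per the labels' protocols, RNA was amplified by a modified SMART-seq2 method with 10 to 12 cycles of preamplification and sequenced from 1 end over 50 bp. Per the submitters' processing notes, bcl2fastq, TopHat2 2.0.8b and HTSeq were used with build mm9. Annotation and strand setting of the counting were not given in the sources used here. Antisense overlaps therefore cannot be told apart. The deposited files hold raw counts per gene symbol. Their 5 summary rows stayed out of library sizes and tests. Reads in no gene made up 65.1% ± 1.66 (SD, n = 8) of uniquely placed reads, and alignments at several places 52.0% ± 1.07 of the sum of all rows.

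From the counts, edgeR 4.0.16 in R 4.3.3 (filterByExpr, TMM, glmQLFit, glmQLFTest) tested CD11c+ minus CD11c- over 10073 genes with Benjamini-Hochberg adjustment at 0.05, two-sided. SE is the log2 fold change divided by the root of F. CPM are TMM-scaled. The lowest chi-square per degree of freedom between libraries of a subset was 9.43, so they differed by more than counting error. Each was treated as 1 sample, though this value cannot show that libraries come from different mice. DESeq2 1.42.0, limma 3.58.1 voom, other scalings and filters, a replicate block and leave-outs were alternatives. Sharing of 50-base windows was counted over GENCODE M21 transcripts (GRCm38), a later build than that of the counting. Steps were tested on simulated data (3 simulations of 10073 genes each), in which 2.07% of the calls between subsets were false.

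Named were the 3 genes of highest mean CPM in each family, the 4 with the smallest unadjusted p in each direction and the HSF1 targets, 30 kept genes in all, together with genes beside the filter's limit. Others were chosen after their values were seen. Members and lists were chosen with earlier results of these data known. Score differences have no test. Intervals from counts cover counting error only.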

Additional observations from a re-analysis of the deposited data

Results flagged for a closer look

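In groups of 4 libraries, the gap between the extreme library and its nearest neighbour was compared with the group's range by Dixon's criterion at the 95% level. Chance marks about 1 in 20 groups, and 4 of 66 groups (6.06%) were marked. Hspa8 was lowest in CD11c+ replicate 1 at 261 CPM, with the other CD11c+ libraries at 358 to 369 CPM. Dnajb11 was lowest in CD11c+ replicate 3 at 232 CPM, with the others at 287 to 288 CPM. Hspb11 was highest in CD11c+ replicate 1 at 15.4 CPM, with the others at 9.35 to 10.1 CPM. Dnajb13 was highest in CD11c- replicate 2 at 20.3 CPM, with the others at 15.4 to 16.0 CPM.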

How the results depend on the processing

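No member was called between the subsets under any alternative run, though DESeq2 gave 18 of 65 no adjusted p. The number of genes called over all genes, 5 as reported, was 12 with no filter, 8 with at least 5 CPM in 4 libraries, 13 with the replicate block, 32 with DESeq2, 19 with limma voom, 11 with legacy=FALSE in edgeR, 11 without the 3 libraries of lowest gene detection, and 1 to 5 with each library left out; which genes were called was not compared. Same-numbered libraries had correlations of their deviations of 0.0792 to 0.192, and others of -0.132 to 0.0344. All 8 libraries correlated best with their own number, a hint from the data, not the design. The labels do not state pairing and replicate 1 lay under 0.1, so the numbers were not taken as pairs. SEs of the main fit and SDs within a subset therefore include any spread between numbers. With the number as a block, edgeR called 0 of 65 members, at a lowest adjusted p of 0.704. Members called by number ranged from 0 to 2 with a library left out of the replicate block, and genes called from 0 to 96. With the block in edgeR, Hsp90aa1 stood at 0.23 (log2, adjusted p 0.805) and Hsp90ab1 at 0.092 (adjusted p 0.851). Both, and the chaperone score, were higher in CD11c+ cells in 4 of 4 numbers, and the HSF1 target score in 3 of 4. The share of all tested genes higher in 4 of 4 was not computed.

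The score difference ranged from -0.030 to 0.085 with a library left out, and that of HSF1 targets from -0.044 to 0.303. Of 509 values of 30 named genes under alternatives, 35 changed sign, in 13 genes, and the lowest adjusted p was 0.206. Without CD11c- replicate 1, Hsp90b1 stood at 0.12, Hsp90aa1 at 0.10, Hspe1 at 0.16 and Hsph1 at 0.07. The cause was not tested. With the replicate block Hspb6 stood at 0.032 (log2). With voom, Cct5 stood at 0.031, Hspa1a at -0.55, Hspa1b at -0.021, Hspa8 at 0.018 and Hspb6 at 0.18. Without the 3 libraries of lowest gene detection, Bag3 stood at 0.22, Cct7 at -0.031, Dnaja2 at -0.018, Hspa1a at -0.87, Hspa8 at 0.021 and Hspb6 at 0.23. With each library left out, ranges that crossed 0 were -0.10 to 0.061 (Cct5), -0.11 to 0.13 (Cct7), -0.0014 to 0.12 (Dnaja2), -0.35 to 0.084 (Dnajb1), -0.041 to 0.15 (Hsf1), -0.0077 to 0.18 (Hsp90ab1), -0.95 to 1.23 (Hspa1a), -0.093 to 0.098 (Hspa8), -0.26 to 0.0065 (Hspb11), -0.39 to 0.18 (Hspb6) and -0.063 to 0.33 (Hspbp1). Depth limits genes under 100 CPM most, and over all genes small changes could mostly not be detected at 4 libraries a subset.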
